A study of Homo sapiens with 6 samples.

Results

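The DEAD and DEAH box helicases were taken as all genes named DDX or DHX followed by a number and at most 1 letter, wherever a probe set named that gene alone. This gave 50 genes of 18417 measured, through 52 probe sets, of which the brighter was kept for the 2 genes that had more than 1. One member is Y-linked (DDX3Y). It is included in every count of 50 members, but its values are not described. Total RNA came from A375, an established human melanoma line that carries the BRAFV600E allele, on single-colour Affymetrix arrays. Of the 6 arrays, 3 were of cells given 10 µM vemurafenib, an inhibitor of the mutant BRAF kinase, for 24 h, and 3 were of cells given vehicle (0.1% DMSO) for 24 h. The replicates of each group were separate stocks of the same line, grown and extracted on separate days. Each stock gave a dish of both groups, but the array numbers were not taken to say which dishes belong together. All values below are deposited log2 levels, or differences of them written as vemurafenib minus vehicle. Tests are limma's, with Benjamini-Hochberg adjustment over all genes and a threshold of 0.05.

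DEAD and DEAH box proteins use ATP to unwind short RNA duplexes or to strip proteins from RNA, and are named for a run of amino acids in their shared motor core. Many work in the nucleolus, where ribosomes are built, or in the spliceosome, and others serve mRNA export, translation and decay. A few act as sensors or cofactors of antiviral defence and are switched on by interferon. In melanoma cells with mutant BRAF, the kinase cascade that the drug blocks drives growth.

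Stretches of 6 promoters are shown. The antiviral pair DDX60 and DDX60L is shown because both rose, and the nucleolar paralogs DDX21 and DDX50 because their changes differed. DDX31 and DDX54 are nucleolar genes that fell and that hold CACGTG. All stretches end upstream of the transcript start that the promoter table uses (for DDX60 this start lies inside the gene's annotated span). They are written 5′ to 3′ on the gene's strand and come from RefSeq (GRCh38.p14). Capitals mark GAAA, any 2 bases and GAAA again, the core of the interferon-stimulated response element, in the DDX60 genes, CCGGAAGT, a core bound by ETS factors, in DDX21 and DDX50, and CACGTG, the E-box bound by MYC and related factors, in DDX31 and DDX54.
DDX60 (chr4:168318783-168318852, minus strand): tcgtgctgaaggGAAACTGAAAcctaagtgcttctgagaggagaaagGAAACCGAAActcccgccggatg
DDX60L (chr4:168480523-168480592, minus strand): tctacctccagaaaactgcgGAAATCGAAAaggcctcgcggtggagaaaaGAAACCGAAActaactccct
DDX21 (chr10:68956070-68956139, plus strand): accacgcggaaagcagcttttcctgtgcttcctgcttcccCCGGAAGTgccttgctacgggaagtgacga
DDX50 (chr10:68901215-68901284, plus strand): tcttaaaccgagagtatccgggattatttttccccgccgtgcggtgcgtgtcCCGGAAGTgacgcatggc
DDX31 (chr9:132669994-132670063, minus strand): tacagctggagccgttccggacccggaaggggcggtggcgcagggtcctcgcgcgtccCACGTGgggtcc
DDX54 (chr12:113185489-113185558, minus strand): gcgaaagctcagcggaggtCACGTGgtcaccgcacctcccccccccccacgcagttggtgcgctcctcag

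Both DDX60 and DDX60L hold the interferon core at 2 places within 100 bases of the start, and DDX21 and DDX50 each hold the ETS core once there. The whole windows (250 bases before the start to 50 after) were searched on both strands. Of the 45 members with a promoter in the table, 3 held the interferon core (6.67%): DDX60, DDX60L and DHX15, of which the last fell. The share was 3.65% of all 27305 promoters and 3.04% of the 14239 promoters of genes tested. CCGGAAGT was in 9 of 45 (20.0%), against 4.44% of all promoters and 6.38% of those of genes tested. CACGTG was in 8 of 45 (17.8%), against 7.43% and 8.88%. By call, the ETS core was in the promoters of 6 of 23 members that fell, 0 of 4 that rose and 3 of 18 that did not pass. The E-box was in 5 of 23 that fell, in 1 of 4 that rose (DHX40) and in 2 of 18 that did not pass. The interferon core was in 1 of 23, 2 of 4 and 0 of 18. DHX58, which rose, DHX33 and DDX52, which fell, and DDX49, which did not pass, had no promoter in the table. They were not searched, so the antiviral genes searched were DDX60 and DDX60L only. Of 11 members placed in ribosome biogenesis that had a promoter, 3 held the E-box and 5 the ETS core. These are matches of letters, not measured binding.

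With vemurafenib, 26 of the 50 helicase genes fell and 5 rose, while 19 did not pass the threshold. Over all genes tested, 45.5% passed, 22.2% lower and 23.2% higher, so the helicases fell more often (52.0%) and rose less often (10.0%) than genes at large, as a description with no test of the group. The median change was -0.23 over the members and -0.05 over all genes. Both DUSP6 and SPRY2, feedback genes of the blocked pathway, fell in the same arrays, with changes of -4.21 and -3.80. In RNA from whole dishes, fewer cells expressing a gene and less of its RNA per cell cannot be told apart.

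Among the 45 members outside the dimmest 25% of genes (mean level up to 6.87), 25 fell and 5 rose, against 27.5% of all such genes that fell and 28.7% that rose. Over all 50 members, falls of at least 1.5-fold were seen for 12 and rises of that size for 3. Over all 18417 genes tested, dim ones included, the shares were 7.03% and 8.71%. The DDX and DHX branches gave similar counts: 18 of 34 DDX genes fell and 3 rose, and 8 of 16 DHX genes fell and 2 rose. When every array was centred on the median of its genes, 32 members fell and 5 rose, and the split over all genes became 5630 lower and 3682 higher, in place of 4090 lower and 4281 higher.

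**Figure D1:**
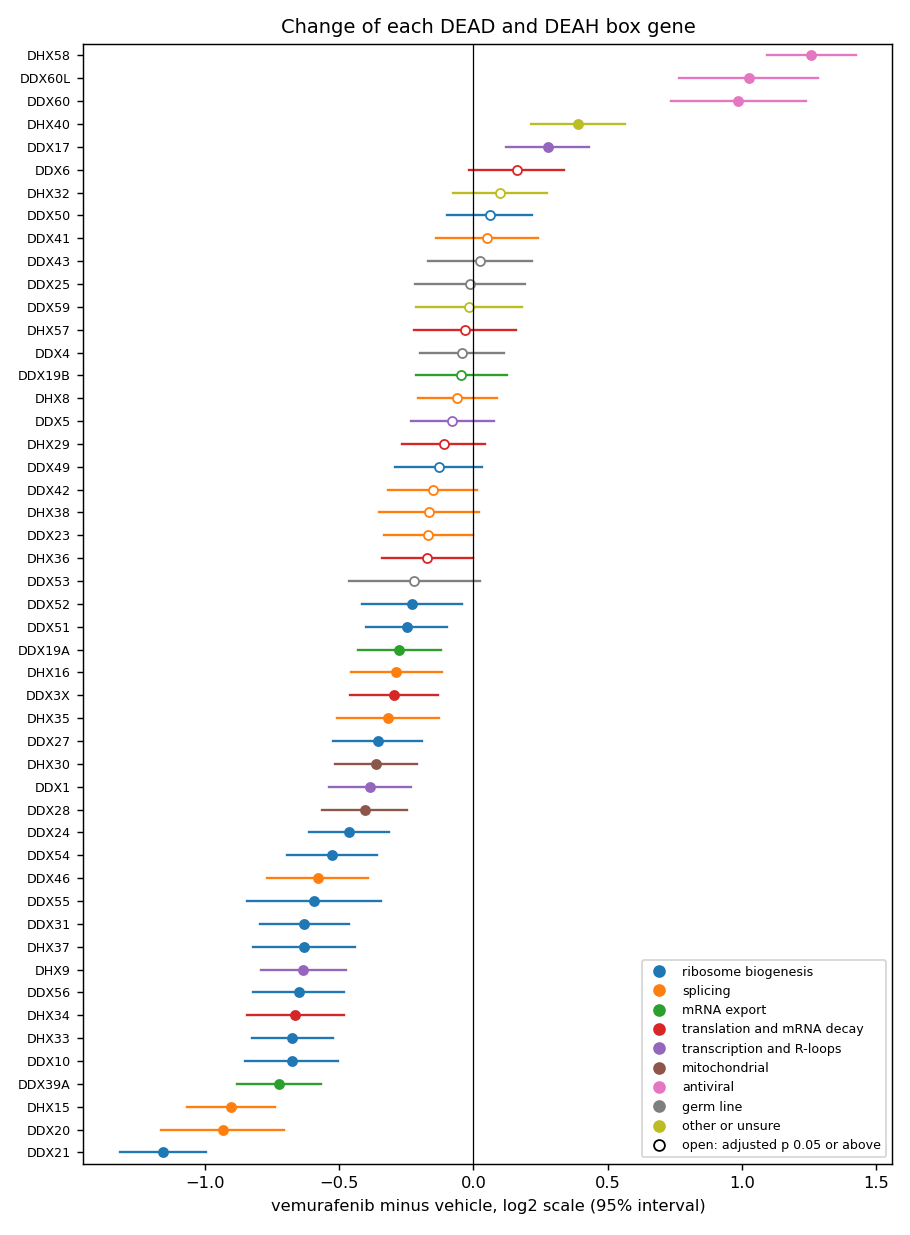
Change of 49 DEAD and DEAH box genes (vemurafenib minus vehicle, log2 scale), with 95% intervals from limma, coloured by role and ordered by size. Filled points passed the threshold: 25 lie left of 0, led by DDX21 at -1.15, and 5 lie right of it, led by DHX58 at 1.26.

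**Figure D2:**
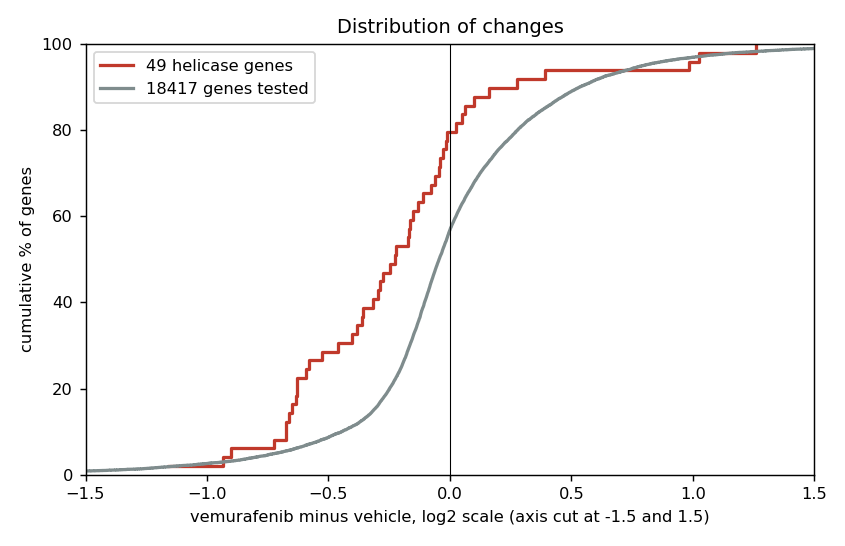
Cumulative percentage of genes by change (vemurafenib minus vehicle, log2 scale) for 49 helicase genes and all 18417 genes tested. The median was -0.23 for the helicase genes and -0.05 for all genes, and the helicase curve stands above the other through most of the falling range.

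The vemurafenib arrays lay wholly below the vehicle arrays for 31 of the 50 members (28.5% of all genes did so) and wholly above for 5 (26.9% of all genes), and the groups overlapped for 14. Over all genes, 55.4% lay apart in either direction. The falls were modest: over the 25 members described, the median was 1.5-fold and the range 1.17-fold to 2.23-fold. Only DDX21 among these fell by at least 2-fold.

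Counts by role, here and below, are to be read beside the 22.2% of all genes that fell and the 23.2% that rose. The largest role group was that of ribosome biogenesis, in which 12 of 14 members fell and 0 rose, with a median change of -0.56. DDX21, a nucleolar helicase that couples transcription by RNA polymerase I to the processing of ribosomal RNA, stood at 10.40, 10.40 and 10.38 in the vemurafenib arrays, against 11.61, 11.44 and 11.58 in the vehicle arrays. The groups were far apart, and the vemurafenib arrays were nearly level (SD 0.01, n = 3). Its change was -1.15 (SE 0.07), 2.23-fold lower, with a limma adjusted p of 2.43e-07, the largest fall in the family.

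Next in this group came DDX10, whose yeast counterpart acts in assembly of the small ribosomal subunit, at 8.76, 8.83 and 8.83 with vemurafenib, against 9.60, 9.36 and 9.49 with vehicle (change -0.68, SE 0.08, limma adjusted p 2.88e-05). DHX33, which acts in the nucleolus and in translation initiation, stood at 10.09, 10.05 and 10.11, against 10.80, 10.70 and 10.77 with vehicle (change -0.67, SE 0.07, limma adjusted p 1.07e-05). Neither gene had a vemurafenib array that reached the lowest vehicle array. DDX56, which works on the large ribosomal subunit, fell 1.57-fold, DHX37, a helicase of the small subunit, 1.55-fold, and DDX31 also 1.55-fold.

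DDX55 and DDX54, both placed in the large subunit pathway, fell 1.51-fold and 1.44-fold. DDX55 was the least tight of them: its 3 vemurafenib arrays spread from 8.43 to 8.82 and its vehicle arrays from 9.02 to 9.36. DDX24 fell 1.38-fold, DDX27, which acts in processing of precursor ribosomal RNA, 1.28-fold and DDX51 1.19-fold. The smallest fall was that of DDX52, at 11.37, 11.33 and 11.38 with vemurafenib, against 11.63, 11.42 and 11.72 with vehicle (change -0.23, SE 0.08, limma adjusted p 0.0464). Over all 17 alternatives its limma adjusted p values ran from 0.00385 to 0.179, and its call was lost in 9 of them. Among those 9 were the fits without vemurafenib replicate 1 (0.0986), 2 (0.111) or 3 (0.0676), and without vehicle replicate 1 (0.129) or 3 (0.179).

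The exceptions in the nucleolar group were DDX49 (-0.13, SE 0.07, limma adjusted p 0.173) and DDX50, the closest paralog of DDX21. DDX50 stood at 9.59, 9.66 and 9.59 with vemurafenib, against 9.58, 9.47 and 9.61 with vehicle. Its groups overlapped, and its change of 0.06 had a 95% interval from -0.10 to 0.22 (limma adjusted p 0.521). The change of DDX21 was lower than that of DDX50 by 1.21 on the log2 scale (SE 0.02, n = 3 arrays per group), and the within-array differences did not overlap between groups. The 2-sided exact permutation p was 0.1, the smallest that 3 against 3 arrays allow.

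**Figure D3:**
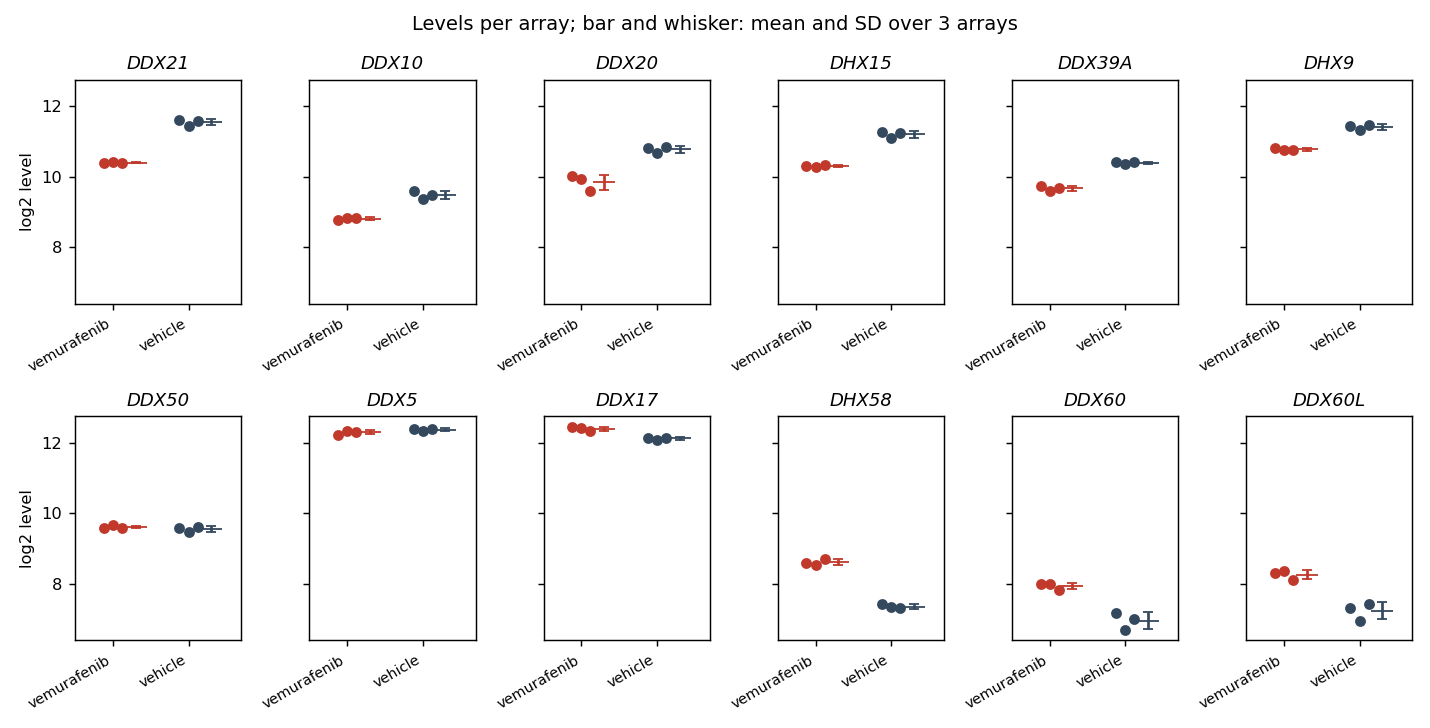
Log2 level of 12 members in each array, vemurafenib left and vehicle right in each panel, with mean and SD over 3 arrays. DDX21, DDX10, DDX20, DHX15, DDX39A and DHX9 lie lower with vemurafenib, DDX50 and DDX5 overlap, and DDX17, DHX58, DDX60 and DDX60L lie higher. Heights are not comparable between genes, since each has its own probe set.

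Of the 10 splicing members, 5 fell and 0 rose, with a median change of -0.23. DDX20 (Gemin3), a subunit of the SMN complex that loads Sm proteins onto small nuclear RNAs, stood at 10.01, 9.92 and 9.61 with vemurafenib, against 10.81, 10.66 and 10.85 with vehicle. It fell 1.91-fold (change -0.93, SE 0.10, limma adjusted p 2.09e-05), although its vemurafenib arrays were the most scattered of any member that fell (SD 0.21). DHX15, which takes spent spliceosomes apart and also serves ribosome assembly, stood at 10.31, 10.27 and 10.32, against 11.28, 11.10 and 11.23 with vehicle, a 1.87-fold fall (change -0.90, SE 0.07, limma adjusted p 1.79e-06).

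The remaining falls among splicing genes were those of DDX46, the human Prp5 counterpart that acts when the branch site is recognised (1.5-fold), DHX35 (1.25-fold) and DHX16, the Prp2 counterpart (1.22-fold). DHX16 had a limma adjusted p of 0.00953, which became 0.0517 without vehicle replicate 1. Its other probe set gave a change of -0.27, beside -0.29 for the one kept. DDX23, which readies the spliceosome for catalysis, DHX38, which remodels it between the catalytic steps, DHX8, which releases the spliced mRNA, and DDX42 and DDX41 did not pass, with changes from -0.17 to 0.05. For DDX41 the 95% interval ran from -0.14 to 0.24, and for DHX8 from -0.21 to 0.09. DDX23 passed in 3 of 17 alternatives, and DDX42 and DHX38 in 2 each. For DHX38 these included the fit without vehicle replicate 2 (change -0.23, limma adjusted p just under 0.05).

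In mRNA export, DDX39A, a helicase that hands mRNA to the export receptor, stood at 9.73, 9.59 and 9.67 with vemurafenib, against 10.41, 10.35 and 10.41 with vehicle. The groups were well apart, with a 1.65-fold fall (change -0.72, SE 0.07, limma adjusted p 7.44e-06). DDX19A, which remodels mRNA at the cytoplasmic face of the nuclear pore, fell 1.21-fold (limma adjusted p 0.00758), and its other probe set gave a change of -0.40. Its near-identical neighbour DDX19B changed by -0.04 (95% interval -0.21 to 0.12, limma adjusted p 0.659). The gap between the 2 changes was -0.23 (SE 0.05), with a 2-sided exact permutation p of 0.1. Since probes of such close copies can share targets, the split between them is uncertain.

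Among 6 helicases of translation and mRNA decay, 2 fell (33.3%) and 0 rose. Of all genes, 22.2% fell, and of those outside the dimmest 25%, 27.5% did. DHX34, which promotes nonsense-mediated decay, stood at 8.82, 8.58 and 8.82 with vemurafenib, against 9.39, 9.43 and 9.38 with vehicle (change -0.66, SE 0.08, limma adjusted p 4.94e-05). DDX3X, which helps ribosomes start on structured mRNAs, fell 1.23-fold (limma adjusted p 0.00712). DHX36, which unwinds G-quadruplexes, and DHX29, which aids scanning on structured leaders, changed by -0.17 and -0.11, and DHX57 by -0.03. DHX36 passed in 4 of 17 alternatives, including the fit without vehicle replicate 2 (limma adjusted p 0.0274). DDX6, the decapping activator that holds silenced mRNAs, changed by 0.16 (95% interval -0.02 to 0.34, limma adjusted p 0.129). It passed upward in 4 of 17 alternatives, including renewed quantile normalization (limma adjusted p 0.0353) and the fit without vemurafenib replicate 3 (0.0305).

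The group of transcription and R-loop helicases moved both ways. DHX9, which unwinds RNA and R-loops in the nucleus, stood at 10.82, 10.77 and 10.75 with vemurafenib, against 11.45, 11.33 and 11.47 with vehicle, a 1.55-fold fall (limma adjusted p 2.34e-05). DDX1, which also belongs to the tRNA ligase complex, fell 1.31-fold (limma adjusted p 0.000782). DDX17, a coregulator of transcription and splicing, stood at 12.46, 12.42 and 12.35, against 12.16, 12.09 and 12.15 with vehicle. It rose 1.21-fold (change 0.28, SE 0.07, limma adjusted p 0.00702), with no overlap between the groups.

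DDX5, the paralog and partner of DDX17, stood at 12.24, 12.35 and 12.33 with vemurafenib, against 12.40, 12.35 and 12.41 with vehicle. Its groups overlapped (change -0.08, 95% interval -0.23 to 0.08, limma adjusted p 0.384). The change of DDX17 was higher than that of DDX5 by 0.35 (SE 0.06), the differences within arrays did not overlap, and the 2-sided exact permutation p was 0.1. Both mitochondrial members fell: DDX28 1.32-fold (limma adjusted p 0.000747) and DHX30 1.29-fold (0.00119), each a factor of mitochondrial ribosome assembly.

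**Figure D4:**
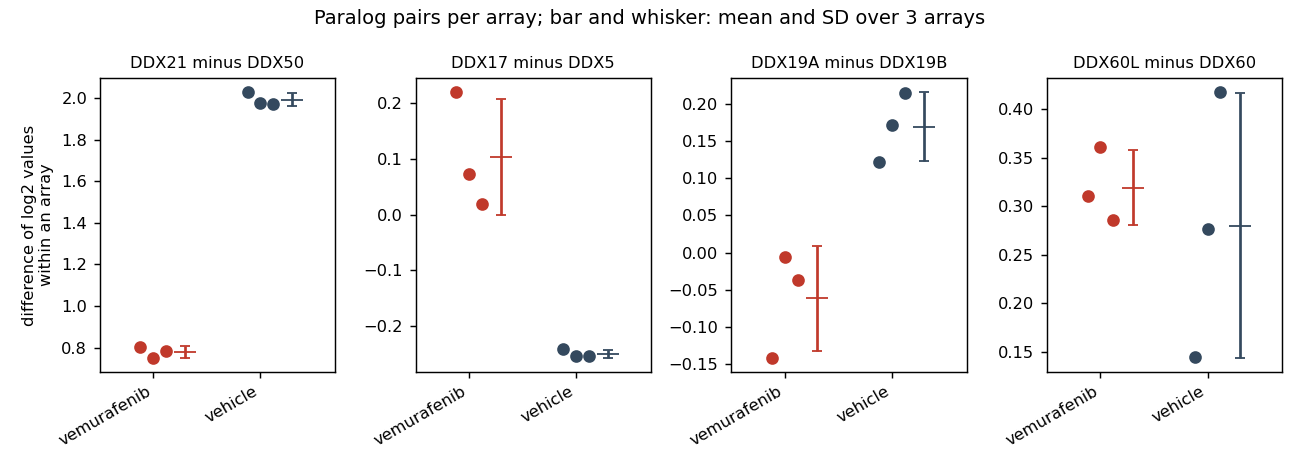
Difference between the log2 values of 4 paralog pairs within each array, vemurafenib left and vehicle right, with mean and SD over 3 arrays and a separate vertical scale in each panel. Only the shift between groups carries meaning, since the genes have different probe sets: it was -1.21 for DDX21 minus DDX50, 0.35 for DDX17 minus DDX5, -0.23 for DDX19A minus DDX19B and 0.04 for DDX60L minus DDX60.

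All 3 antiviral members rose, and they were the only members of any role that rose by at least 1.5-fold. DHX58 (LGP2), a cofactor of the viral RNA sensors, stood at 8.59, 8.52 and 8.69 with vemurafenib, against 7.42, 7.33 and 7.30 with vehicle (change 1.26, SE 0.08, 2.39-fold, limma adjusted p 1.63e-07). DDX60L stood at 8.30, 8.35 and 8.11, against 7.31, 6.95 and 7.42 with vehicle (change 1.02, SE 0.12, limma adjusted p 2.51e-05). DDX60, an interferon-induced helicase, stood at 7.99, 7.99 and 7.82, against 7.17, 6.67 and 7.01 with vehicle (change 0.98, SE 0.11, limma adjusted p 2.83e-05).

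In each of these genes every vemurafenib array exceeded every vehicle array. Vehicle replicate 2 was the lowest array for both DDX60 and DDX60L, and the vehicle SD was 0.25 in each. Vehicle levels of DDX60 (6.95 ± 0.25, SD, n = 3) lay close to the bound of the dimmest 25% of genes, 6.87, and the part of background in its fold was not tested. The 2 DDX60 genes moved together: the gap between their changes was 0.04 (SE 0.08, 2-sided exact permutation p 0.7), and their close sequences leave the split between them uncertain. Their promoter stretches, each with 2 copies of the interferon core, are printed above.

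DHX40, with no role assigned here, rose 1.31-fold to 9.70, 9.61 and 9.77 with vemurafenib, against 9.40, 9.19 and 9.32 with vehicle (limma adjusted p 0.00195). DHX32 and DDX59 did not pass, with changes of 0.10 and -0.02. The germ line members DDX4, DDX25, DDX43 and DDX53 had group means between 5.01 and 5.84, inside the range of the dimmest 25% of genes, and 0 of the 4 passed. Since no level above background was shown for them, whether their RNA changed cannot be told.

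Helicases outside the naming rule were counted for comparison, and this count and those of the partner lists below are to be read beside the 22.2% of all genes that fell and the 23.2% that rose. Of 19 other RNA helicases, 6 fell (31.6%) and 5 rose (26.3%), shares near those of all genes, with a median change of -0.06. Those that rose numbered 4 without the dimmest 25% of genes and 2 without the dimmest 50%. EIF4A3, the DEAD box core of the exon junction complex, fell 1.56-fold (limma adjusted p 1.34e-05). MOV10, an RNA helicase of mRNA silencing, rose 1.78-fold (limma adjusted p 3.81e-06). IFIH1 (MDA5), a sensor of viral double-stranded RNA, was at 7.11 ± 0.15 with vemurafenib and 6.29 ± 0.21 with vehicle (SD, n = 3; limma adjusted p 9.89e-05). Its vehicle mean was under 6.87, the bound of the dimmest 25% of genes, so its rise is not given as a fold. RIGI (RIG-I), the other sensor with which DHX58 works, was at 7.73 ± 0.13 with vemurafenib and 7.02 ± 0.24 with vehicle (SD, n = 3; limma adjusted p 0.000375). The vehicle mean of RIGI lay close to the same bound, with vehicle replicate 2 at 6.74. The part of background in its rise was not tested. Of the 19, 8 did not pass. Among these were HELZ2 (change 0.01, limma adjusted p 0.956) and ZNFX1 (change -0.01, limma adjusted p 0.892).

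Members of protein families that regulate helicases were counted next. Of 21 G-patch proteins, a family of which some activate DEAH box motors, 8 fell and 3 rose (median -0.15). GPATCH4, PINX1, both nucleolar, and NKRF led with falls of 1.85-fold, 1.73-fold and 1.52-fold (limma adjusted p 2.97e-06, 7.27e-06 and 0.000110). The probe sets of GPATCH4 disagreed: with all of them averaged its change was -0.06 (limma adjusted p 0.546). Of 10 proteins with MIF4G or related MA3 domains, scaffold folds of which many bind DEAD box motors, 5 fell and 2 rose (median -0.21). NOM1, a nucleolar one, fell 1.84-fold, NCBP1, the large cap-binding subunit, fell 1.31-fold, and PDCD4, which blocks EIF4A, rose 1.55-fold.

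Partners of single members were counted last. Of 7 SMN complex partners of DDX20, 6 fell and 1 rose, with a median of -0.48. GEMIN5, which recognises the small nuclear RNAs, was at 9.84 ± 0.15 with vemurafenib and 10.82 ± 0.07 with vehicle (SD, n = 3), 1.97-fold lower, and GEMIN4 and GEMIN6 fell 1.93-fold and 1.68-fold. GEMIN8 rose 1.31-fold. The smaller falls of GEMIN2 and GEMIN7 no longer passed in limma without vemurafenib replicate 1 (0.0527) and without vehicle replicate 1 (0.0507). DDX20 itself passed in all 17 alternatives, with an adjusted p of at most 0.000189.

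Of 9 decapping partners of DDX6, 3 fell and 1 rose, the riser being the decapping subunit DCP1B (1.52-fold) and the largest fall that of DCP2, the decapping enzyme (1.25-fold). Of 6 tRNA ligase partners of DDX1, 2 fell, FAM98A by 1.38-fold and the ligase RTCB by 1.18-fold, and C2orf49 rose 1.23-fold. RTCB (limma adjusted p 0.0257) no longer passed without vemurafenib replicate 1 (0.0731) or 2 (0.0948) or vehicle replicate 1 (0.0773) or 3 (0.0871), nor C2orf49 without vemurafenib replicate 3 (0.0576) or vehicle replicate 2 (0.0607). None of the 3 nuclear pore partners of DDX19A and DDX19B (GLE1, NUP214 and NUP42) passed in limma, with changes from -0.10 to 0.12.

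**Figure D5:**
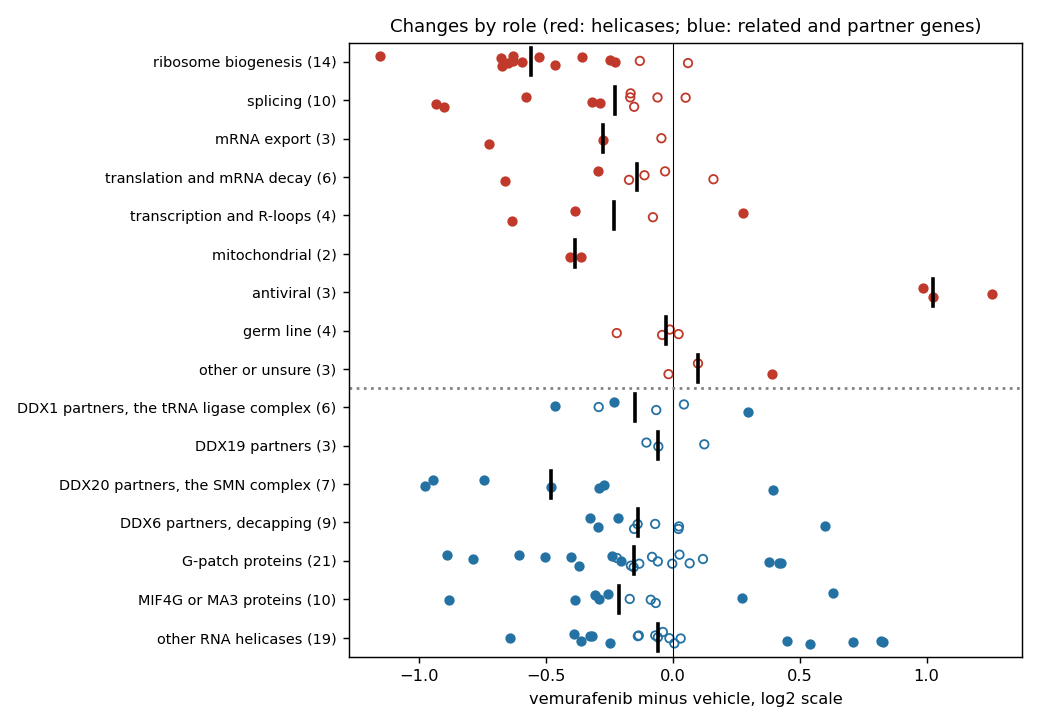
Change of each gene (vemurafenib minus vehicle, log2 scale) by role, helicases in red above the dotted line and related or partner genes in blue below it, with the number of genes in brackets. Filled points passed the threshold and black bars are medians, which lie lowest for ribosome biogenesis at -0.56 and highest for the antiviral genes at 1.02.

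The line was checked against its label. MITF and SOX10, transcription factors of pigment cells, were at 10.91 and 11.78 with vemurafenib and at 10.17 and 11.48 with vehicle. Of 7 pigment cell markers measured, 3 had a group mean above the bound of the dimmest 25% of genes (MITF, SOX10 and S100B), while MLANA, TYR, TYRP1 and PMEL lay below it in both groups. Of the markers of other cell types, 0 of 3 for leukocytes and 0 of 2 for endothelium lay above that bound, but 2 of 3 for keratinocytes and 3 of 3 for fibroblasts did. KRT14 was at 8.95 with vemurafenib and 8.68 with vehicle (limma adjusted p 0.0501), and COL1A1 at 8.42 and 8.41. The fibroblast markers LUM and DCN rose: LUM was at 9.70 with vemurafenib and 8.58 with vehicle (limma adjusted p 7.69e-06), and DCN at 6.92 and 5.46 (2.06e-07), its vehicle level within the dimmest range. The log2 of the summed fibroblast markers ran from 10.24 to 10.40 in the vemurafenib arrays and from 9.45 to 9.71 in the vehicle arrays. The part of these markers in the helicase results was not tested.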

How the data were processed

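The authors deposited log2 values per probe set, and RMA and Partek appear, with no version, per the submitters' processing notes. RMA equalises the arrays, which would hide a change in total RNA per cell. How batches were handled is not given in the sources used here, nor is a genome build. The table held 33297 probe sets on 6 arrays, with array medians from 7.69 to 7.73. No read depth exists for arrays, so their number limits the precision. Probe sets naming 1 gene (19460) were used, the brightest per gene, with no filter on dim ones.

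All 18417 genes were fitted with limma 3.58.1 in R 4.3.3 (group as the only term, default eBayes), and only helicase rows are described. The members, role and partner lists, motifs and alternatives were chosen with earlier results of these data known. Up to 25 members by size of change past the threshold, all paralog pairs and all members of groups of 6 or fewer were to be named. Up to 3 genes per partner list were to be added. More were named than this, among them EIF4A3, HELZ2, ZNFX1, GEMIN2, GEMIN7 and GEMIN8. The fit was tested on simulated data. Same-numbered arrays were not treated as pairs.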

Additional observations from a re-analysis of the deposited data

How the results depend on the processing

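With the replicate number as a fixed block (replicate block), 30 members passed, 25 lower and 5 higher, against 31, 26 and 5 without it, and as a random block also 30. Over all genes, 19.6% fell and 21.7% rose with the fixed block, and 20.8% and 22.3% with the random one. Same-numbered arrays deviated together in 1 of 3 pairs (correlations 0.14, -0.18 and -0.25), so the numbers were not taken as pairs. The highest correlations for vemurafenib replicates 2 and 3 were with vehicle replicates 3 (0.22) and 2 (0.28), and no fit was blocked on a matching read from these values. The design text pairs dishes by letters that the labels give for 1 array. Leaving out 1 array at a time gave 28 to 33 members called, 23 to 28 of them lower and 5 or 6 higher. In the same fits, 18.4% to 22.8% of all genes fell and 20.5% to 22.4% rose. Without the dimmest 50% of genes, 2 members passed upward, because the 3 antiviral genes were not tested there. Of all genes left in that fit, 32.5% rose. After renewed quantile normalization the gap between the changes of DDX21 and DDX50 was -1.15. The alternative that centred arrays on the median of their genes was chosen after seeing the data. Over 819 results of single members under the alternatives, 789 kept their call and direction, 12 lost the call and 18 gained it, and these 30 belonged to 11 members. The lost calls were those of DDX52, DHX16, DHX35 and DDX51, the last 2 at a threshold of 0.01.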

Other observations

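Vehicle replicate 2 was the lowest vehicle array for 35 of 49 helicase genes, against 44.7% of all genes tested. Without it, 28 members fell and 5 rose, against 20.5% of all genes that fell and 21.5% that rose in the same fit. Among the vemurafenib arrays, replicates 2 and 3 were each the lowest for 21 of 49 (42.9%), against 42.5% and 33.4% of all genes tested. The groups lay apart, with vemurafenib below, for 5 members that did not pass (DHX36, DDX23, DDX42, DHX29 and DHX8). Of all genes tested, passing or not, 28.5% lay apart in this way and 22.2% passed as lower. The share among genes that did not pass was not counted, so these 5 are not read as further falls.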
